A study of Mus musculus with 7 samples.

Results

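Astrocytes are the star-shaped glia that take up synaptic glutamate, carry water and ions between blood vessels and neurons, and are joined to each other by gap junctions. The 9 genes described here are widely used to mark them: the intermediate filament gene Gfap, the water channel gene Aqp4, the folate enzyme gene Aldh1l1, the glutamate transporter genes Slc1a2 and Slc1a3, the connexin gene Gja1, the calcium-binding protein gene S100b, the lipid-binding protein gene Fabp7 and the secreted glycoprotein gene Sparcl1. They are not private to astrocytes. S100b is also made in the oligodendrocyte lineage, and Slc1a3 and Fabp7 are active in radial glia, the embryonic stem-like cells of the brain.

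The genes were taken as a list of symbols, and each was matched to the array probe sets annotated with that symbol alone. All 9 had a probe set, among 18193 genes with one in the series, and together they had 29. The probe set with the highest mean over the arrays represented each gene, and all 9 means lay above the filter on dim probe sets, a log2 value of 3.99, so that all 9 were among the 14453 genes tested.

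RNA levels were read on Affymetrix arrays from mouse glioma cells of C57/Bl6 background with PDGF-B/EGFP overexpression, a growth factor and a fluorescent protein. Early-onset, low-grade gliomas were the starting point. Their cells formed secondary gliomas (n = 4) in the brains of immunodeficient NOD/SCID hosts, and a further passage of secondary glioma cells through NOD/SCID hosts formed tertiary gliomas (n = 3). In both groups the dissected tumour was dissociated in trypsin and sorted for EGFP, made from the same bicistronic transcript as PDGF-B, so the gate was the transgene and not a lineage marker. Within a group the samples carry the label of biological replicates. The labels name neither the age of the mice, the promoter of the transgene, nor the primary tumour, donor glioma and host of each sample, so p-values measure the spread between these samples.

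The sorted cells carried the markers of oligodendrocyte precursors, the cell type that PDGF is known to drive, in every sample. The mean log2 level over 14 tested precursor markers ran from 9.75 to 10.15 in secondary and from 9.89 to 10.22 in tertiary gliomas, with none called. Pdgfra, the PDGF receptor, named after its values were seen, had log2 levels between 10.73 and 11.15 over the 7 samples. Microglia and macrophage markers, by contrast, had list means of 9.98 to 10.75 in secondary and 5.85 to 6.68 in tertiary gliomas, and 19 of 19 tested were lower in tertiary gliomas, among them Fcer1g, Ptprc, Trem2 and Cd68 (log2 differences of -4.12, -5.37, -4.0001 and -3.97; -2.01 for Trem2 with its probe sets averaged). Over all genes tested, 6.33% were called lower. Mature oligodendrocyte markers were called lower in 5 of 13 cases, those of smallest p being Aspa (-1.88), Mog (-2.42), Mal (-1.74) and Mag (-2.42), and their list means were 7.63 to 8.42 and 6.55 to 6.83. The Mag call was lost with each gene's own variance (adjusted p = 0.0716). In bulk RNA, fewer cells of a type and less RNA per cell cannot be told apart.

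None of the 9 astrocyte genes passed the test between tertiary and secondary gliomas (limma, adjusted p under 0.05 over all genes tested), where 7.38% of all genes were called, 6.33% lower and 1.04% higher. At an unadjusted p under 0.05 there were 2 of the 9, Aldh1l1 and Aqp4, against 23.8% of all genes. The mean was lower in tertiary gliomas for 7 of the 9, and for 5688 of all 14453 genes tested. The median log2 difference of the 9, tertiary minus secondary, was -0.60, beside 0.09 over all genes tested. Groups without overlapping values were found for 1 of the 9, Aldh1l1, and for 21.9% of all genes. The whole-array counts moved with single samples: 915 genes were lower and 151 higher with all 7, 781 were higher without tertiary glioma 1, and 27 and 43 without tertiary gliomas 2 and 3. Each secondary glioma left out, from 1 to 4, gave 56, 77, 68 and 70 higher genes.

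The astrocyte genes differed from sample to sample more than most genes did. The median over the 9 of the standard deviation within groups was 0.82 on the log2 scale, and it was 0.27 over all genes tested. With the probe sets used, Gja1 (pooled SD 1.81), Sparcl1 (1.19) and Aqp4 (1.12) stood at the 99.9th, 99.4th and 99.2nd percentiles of that measure. S100b, Gfap and Slc1a2 stood at the 97.6th, 97.0th and 95.2nd percentiles, while Slc1a3, Fabp7 and Aldh1l1 lay between the 55.5th and the 74.7th. Among the 3 tertiary gliomas, number 1 was the highest in 6 of the 9 genes and number 2 the lowest in 6. Over all genes tested, those shares were 39.3% and 30.3%. The 6 genes lowest in number 2 include Aqp4, at 3.86 in both tertiary gliomas 2 and 3. In these and later counts, whole-array shares included, a tie went to the lower-numbered tertiary glioma.

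**Figure D1:**
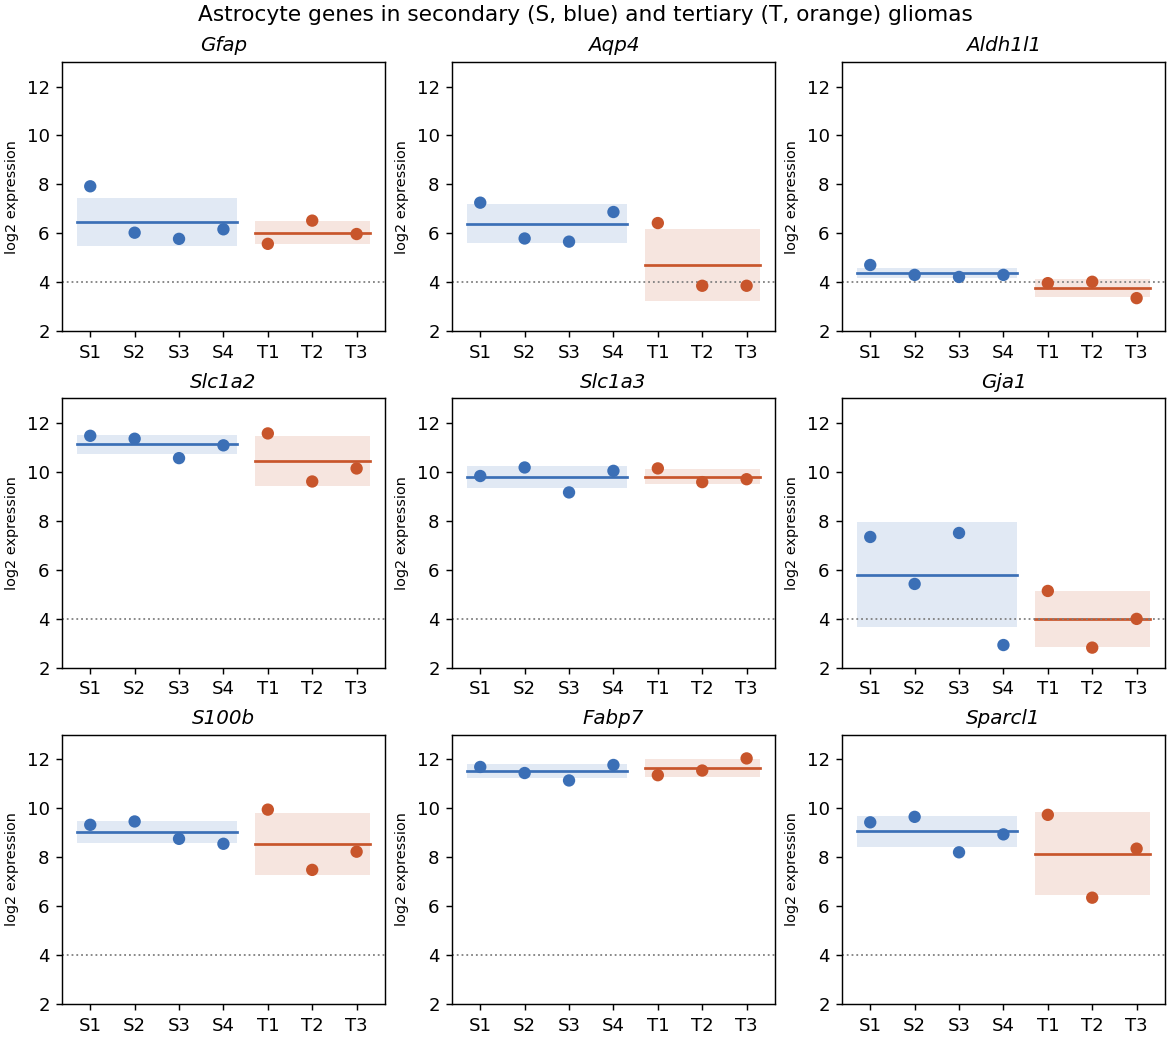
Log2 expression (vertical axis) of the 9 astrocyte genes in each secondary (S1 to S4, blue) and tertiary (T1 to T3, orange) glioma; lines are group means, shaded bands ± 1 SD, and the dotted line the filter on dim probe sets at 3.99. Tertiary glioma 1 sits among or above the secondary gliomas in Aqp4, Slc1a2, S100b and Sparcl1, tertiary glioma 2 lies below them, and Slc1a3 and Fabp7 are nearly level.

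Slc1a2 and Slc1a3 encode the transporters GLT-1 and GLAST, which clear glutamate from the extracellular space. Slc1a2 had log2 levels of 11.47, 11.35, 10.56 and 11.08 in secondary gliomas 1 to 4 and of 11.57, 9.61 and 10.14 in tertiary gliomas 1 to 3. Tertiary glioma 1 was above every secondary glioma and tertiary gliomas 2 and 3 were below every one, so the groups overlapped through a single sample. The log2 difference was -0.68 ± 0.45 (SE, n = 4 and 3; limma adjusted p = 0.397), with a 95% interval of -1.73 to 0.37. Without tertiary glioma 1 it was -1.25 and passed the test (adjusted p = 0.0392), and without tertiary glioma 2 it was -0.26.

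Slc1a3 had nearly equal group means. Its secondary values were 9.83, 10.18, 9.16 and 10.04 and its tertiary values 10.14, 9.58 and 9.70, all 3 inside the secondary range. The log2 difference was 0.0049 ± 0.27 (adjusted p = 0.994, interval -0.61 to 0.62), and its sign turned without secondary glioma 3 (-0.21) and without tertiary glioma 1 (-0.16). The other probe sets told the same of each gene: 4 of the 5 for Slc1a2 had differences between -0.68 and -0.52 and the dimmest of them 0.0068, and the 6 for Slc1a3 ran from -0.06 to 0.26.

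The other genes of glutamate uptake and the glutamine cycle gave 1 call among 13 tested (7.69%, beside 7.38% of all genes), with the 2 transporters included and a median difference of 0.0049. Glul, the glutamine synthetase that turns glutamate into glutamine in astrocytes, had secondary values of 11.16, 11.03, 11.44 and 11.05 and tertiary values of 10.10, 10.01 and 9.80. The groups lay apart, with a log2 difference of -1.20 ± 0.15 (adjusted p = 0.00238), a call kept with each sample left out in turn. Microglia, whose markers were lower in the same samples, also make Glul, and their part in this was not tested.

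Among the 3 tertiary gliomas, though not among the secondary gliomas, S100b and Sparcl1 followed the order of Slc1a2. S100b, a calcium-binding protein secreted by glia, had log2 levels of 9.32, 9.46, 8.75 and 8.55 in secondary gliomas and of 9.94, 7.48 and 8.22 in tertiary gliomas. Again tertiary glioma 1 was the highest of all 7 samples and tertiary gliomas 2 and 3 were the lowest. S100b thus had a log2 difference of -0.47 ± 0.54 (adjusted p = 0.638, interval -1.73 to 0.79), -1.17 without tertiary glioma 1 (adjusted p = 0.0667) and 0.06 without tertiary glioma 2. The dimmer S100b probe set had the same order within the tertiary group and a difference of -0.53.

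Sparcl1, also called hevin, is a matrix protein that astrocytes release at forming synapses. Its values were 9.42, 9.65, 8.20 and 8.93 in secondary and 9.73, 6.34 and 8.35 in tertiary gliomas. The spread of 3.39 between tertiary gliomas 1 and 2 was wider than the whole range of the secondary gliomas. For Sparcl1 the log2 difference was -0.91 ± 0.73 (adjusted p = 0.488, interval -2.61 to 0.79), reaching -1.70 without tertiary glioma 1 (adjusted p = 0.119) and -0.0115 without tertiary glioma 2.

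Among relatives of both genes the tertiary order was partly like theirs. In the SPARC family, Sparcl1 included, tertiary glioma 1 was the highest tertiary glioma in 5 of 8 tested genes and tertiary glioma 2 the lowest in 5. In the S100 list, which includes S100b and binding partners, tertiary glioma 1 was the highest in 6 of 14 (42.9%) and tertiary glioma 2 the lowest in 8. Over all genes tested, the shares were 39.3% and 30.3%. S100a1, a calcium-binding relative of S100b named after its values were seen, was at 10.85, 7.43 and 8.95 in tertiary gliomas 1 to 3. The called genes had other profiles. Of the SPARC family 1 of 8 fell (12.5%, beside 6.33% of all genes): Sparc, a collagen-binding matrix protein, had secondary values of 11.41 to 12.17 and tertiary values of 8.23, 8.98 and 10.07. Its log2 difference was -2.58 ± 0.41 (adjusted p = 0.00721), -1.61 with its probe sets averaged, and tertiary glioma 1 was its lowest sample, whereas it was the highest of Sparcl1. The Sparc call was lost with each gene's own variance (adjusted p = 0.0712). The median of the SPARC family, -0.39, became -0.91 with tertiary glioma 1 left out and 0.12 with tertiary glioma 2 left out. Of the S100 list 2 of 14 fell (14.3%, beside 6.33% of all genes): S100a9 (-3.45 ± 0.53, adjusted p = 0.00656) and S100a8 (-3.42 ± 0.54, adjusted p = 0.00725), the calprotectin subunits of neutrophils and monocytes. Both calls were lost with each gene's own variance (0.0709 and 0.0741). Microglia and macrophage markers moved with these genes, at a median of -4.19, and their part was not tested.

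Slc1a2 and S100b had the closest profiles of any 2 of the 9 genes, with a root mean square difference of 0.27 between their log2 values after each was centred on its own mean over the 7 samples. The bases just before the start of each gene are shown for this pair, beside Gja1 and Fabp7, whose profiles differed most from each other of the 36 pairs (1.93). RefSeq's table for assembly GRCm38.p6 gave such a window for 7 of the 9 genes. Each run below holds the 250 bases before the start, 5′ to 3′ on the gene's strand, and capitals mark matches to any of 5 motifs on either strand.
Slc1a2: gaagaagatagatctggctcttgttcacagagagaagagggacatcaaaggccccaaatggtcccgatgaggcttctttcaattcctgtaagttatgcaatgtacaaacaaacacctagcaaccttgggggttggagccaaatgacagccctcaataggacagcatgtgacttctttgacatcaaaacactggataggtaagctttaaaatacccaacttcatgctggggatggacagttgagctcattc
S100b: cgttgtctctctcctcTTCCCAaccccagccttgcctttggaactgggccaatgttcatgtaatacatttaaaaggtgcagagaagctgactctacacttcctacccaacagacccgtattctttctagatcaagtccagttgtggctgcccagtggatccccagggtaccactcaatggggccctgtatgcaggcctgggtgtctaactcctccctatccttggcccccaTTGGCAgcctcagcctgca
Gja1: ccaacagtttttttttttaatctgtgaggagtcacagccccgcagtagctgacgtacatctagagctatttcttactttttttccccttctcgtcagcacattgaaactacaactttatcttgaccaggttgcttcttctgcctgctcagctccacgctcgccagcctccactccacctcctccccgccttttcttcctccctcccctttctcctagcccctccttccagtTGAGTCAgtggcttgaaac
Fabp7: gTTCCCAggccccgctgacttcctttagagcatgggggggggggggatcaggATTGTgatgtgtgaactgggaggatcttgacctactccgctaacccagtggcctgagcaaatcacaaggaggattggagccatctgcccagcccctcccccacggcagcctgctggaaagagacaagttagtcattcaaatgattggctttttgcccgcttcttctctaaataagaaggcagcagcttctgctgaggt
The windows lie at chr2:102706188-102706437, chr10:76253586-76253835, chr10:56377050-56377299 and chr10:57784673-57784922, all on the plus strand. The motifs were TTGGCA of nuclear factor I, TTCNNNGAA of STAT factors, ACAAT of SOX factors, TGGGAA of RBPJ, the nuclear partner of Notch, and TGANTCA of AP-1. S100b held 1 nuclear factor I match, 19 to 14 bases before the start, and 1 RBPJ match. Gja1 held 1 AP-1 match, 19 to 13 bases before the start, and Fabp7 held 1 SOX and 1 RBPJ match. No marked matches overlapped, and these letters did not occur in the Slc1a2 window. Of 32851 such windows in the table, 12.3% held the nuclear factor I motif, 7.02% the STAT motif, 27.7% the SOX motif, 21.6% the RBPJ motif and 6.75% the AP-1 motif. A match describes the letters and not a bound site.

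Aqp4 encodes the water channel of astrocyte endfeet, the processes that wrap blood vessels. Its log2 levels were 7.25, 5.79, 5.66 and 6.87 in secondary gliomas and 6.42, 3.86 and 3.86 in tertiary gliomas. Tertiary gliomas 2 and 3 were below the dim filter and below every secondary glioma, while tertiary glioma 1 was within the secondary range. The log2 difference was -1.68 ± 0.69 (adjusted p = 0.194, unadjusted interval -3.29 to -0.07). It was -2.54 and passed the test without tertiary glioma 1 (adjusted p = 0.0193), and with tertiary glioma 2 or 3 left out instead it was -1.26 both times. The 2 further Aqp4 probe sets had differences of -1.07 and -1.15 and the same split of the tertiary gliomas.

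Of 14 tested genes of the list of aquaporins and the dystrophin complex that anchors AQP4 in the endfoot membrane, Aqp4 included, limma called none and 2 had an unadjusted p under 0.05 (beside 23.8% of all genes). Their differences ran from -1.68 to 0.57, with a median of 0.03. Tertiary glioma 1 was the highest tertiary glioma in 9 of the 14 and tertiary glioma 2 the lowest in 9, where the shares over all genes were 39.3% and 30.3%. Each count holds a tie. A gene at 4.42 in all 3 tertiary gliomas was counted as highest in tertiary glioma 1. Aqp4, equal in tertiary gliomas 2 and 3, was counted as lowest in tertiary glioma 2. Utrn, the dystrophin relative utrophin, was at 0.57 ± 0.20 (adjusted p = 0.145). Kcnj10, the potassium channel that shares the endfoot with AQP4, ran from 9.12 to 9.90 over the 7 samples, and Hepacam, an adhesion protein of astrocyte contacts, reached 9.11 in tertiary glioma 1 and 7.52 in tertiary glioma 2. Both genes were named after their values were seen.

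Gja1 encodes connexin 43, the main gap junction protein of astrocytes. With the probe set used it had the widest spread of the 9 genes. Its log2 levels were 7.34, 5.42, 7.50 and 2.92 in secondary gliomas and 5.13, 2.82 and 3.99 in tertiary gliomas. Secondary gliomas 1 and 3 were high, secondary glioma 4 lay near the tertiary low, and the groups overlapped. Between the groups Gja1 differed by -1.82 ± 1.11 (adjusted p = 0.360, interval -4.40 to 0.77), and it ran from -2.77 without secondary glioma 4 to -1.23 without tertiary glioma 2. The probe set used has the suffix x_at, which marks probes that may cross-hybridise. In the other 5 probe sets the differences ran from -1.91 to -0.32, and each had secondary gliomas 1 and 3 as its 2 highest samples. The spread depended on the probe set. 1 without that suffix, of nearly the same mean over the 7 samples (4.92, beside 5.02), ran only from 4.54 to 5.48.

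Pericyte and fibroblast markers had a like order among secondary gliomas, with list means of 5.88, 5.65, 6.26 and 5.08 in secondary gliomas 1 to 4 and 5.00 to 5.13 in tertiary gliomas; their part in the Gja1 values was not tested. Of 11 tested markers of that list 2 fell (18.2%, beside 6.33% of all genes), Anpep (-1.88 ± 0.36) and Abcc9 (-1.59 ± 0.37). The call of Anpep (adjusted p = 0.0177) was lost without secondary glioma 4 (0.0539) and tertiary gliomas 2 (0.0731) and 3 (0.0708). Abcc9 (adjusted p = 0.0432) lost its call when secondary glioma 2 (0.0625) or 4 (0.0989) or tertiary glioma 1 (0.0518), 2 (0.154) or 3 (0.129) was left out. The list median of -0.50 was -0.32 without secondary glioma 3, -1.02 without secondary glioma 4 and -0.84 without tertiary glioma 3. Among 11 tested connexin and pannexin genes, Gja1 included, none was called (1 at an unadjusted p under 0.05, beside 23.8% of all genes, with a median of -0.10). Panx1, a pannexin channel, was at 0.52 ± 0.14 (adjusted p = 0.0640) and Gjd2, the neuronal connexin 36, at 0.30 ± 0.14 (adjusted p = 0.256). Gjb6, the other astrocyte connexin, was below the dim filter in all 7 samples, between 1.80 and 2.03, and was named after its values were seen.

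**Figure D2:**
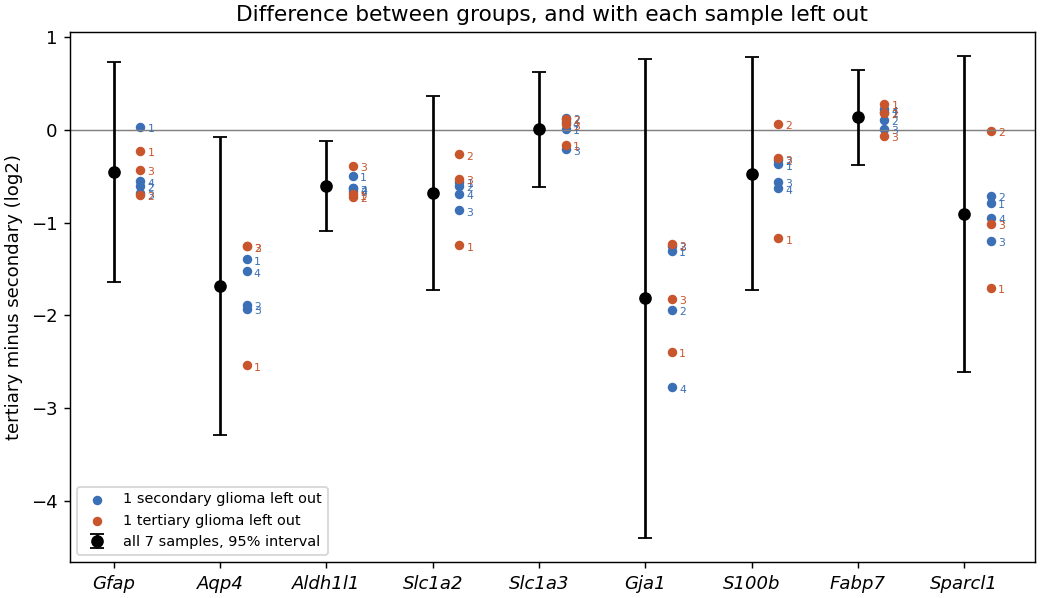
Tertiary minus secondary log2 difference of the 9 genes with all 7 samples (black, bars are 95% intervals) and with each secondary (blue) or tertiary (orange) glioma left out, numbered by the sample removed. Aqp4 moved from -1.68 to -2.54 and Slc1a2 from -0.68 to -1.25 without tertiary glioma 1, and Sparcl1 moved from -0.91 to -0.0115 without tertiary glioma 2.

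Gfap encodes the filament protein by which astrocytes and many astrocytic tumours are recognised. Its log2 levels were 7.92, 6.03, 5.77 and 6.16 in secondary and 5.57, 6.52 and 5.97 in tertiary gliomas. Secondary glioma 1 stood above the other 6 samples, among which the groups were mixed. The log2 difference was -0.45 ± 0.51 (adjusted p = 0.631, interval -1.64 to 0.74) and 0.03 without secondary glioma 1. The tertiary order was that of neither Aqp4 nor S100b, since tertiary glioma 2 had the most Gfap. The 2 other Gfap probe sets disagreed in sign, at 0.15 and -0.81, but in both of them secondary glioma 1 was the highest sample and tertiary glioma 1 the lowest. In the probe set at 0.15, tertiary glioma 2 (7.26) was almost level with secondary glioma 1 (7.27).

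Secondary glioma 1 was also high in a few further genes. Mlc1, an astrocyte membrane protein, was at 7.17 there and between 3.59 and 4.39 in the other samples. Slco1c1, a thyroid hormone transporter of brain endothelium and astrocytes, was at 6.08 there and between 3.83 and 4.20 elsewhere, and Ttr, the transthyretin of choroid plexus, was at 10.15 there and 9.22 in secondary glioma 4 but between 5.14 and 6.14 in the rest. Mlc1 was named after its values were seen. None of the 6 tested ependymal and choroid plexus markers was called, nor had any an unadjusted p under 0.05 (median -0.21, or 0.00066 without secondary glioma 1), with Folr1, a folate receptor, at -0.52 ± 0.23 and Ttr at -2.46 ± 1.12. None of 11 endothelial markers was called either, with 5 at an unadjusted p under 0.05, beside 23.8% of all genes. Cdh5, the endothelial cadherin, was at -0.48 ± 0.15 (adjusted p = 0.110) and Vwf, von Willebrand factor, at 0.64 ± 0.21 (0.120). The list means were 5.36 to 5.66 in secondary and 5.22 to 5.43 in tertiary gliomas.

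The other intermediate filament genes gave no call among 13 tested, Gfap included, with 2 at an unadjusted p under 0.05 (beside 23.8% of all genes) and a median difference of 0.13. Nes, the nestin of neural stem cells and gliomas, had values of 7.14, 7.01, 6.95 and 7.60 in secondary and 7.36, 8.79 and 9.27 in tertiary gliomas (1.30 ± 0.42, adjusted p = 0.121). Tertiary gliomas 2 and 3, low in Aqp4, Slc1a2 and S100b, were the highest in Nes, and tertiary glioma 1 lay among the secondary gliomas. Ina, the neuronal filament internexin, was at 0.76 ± 0.22 (adjusted p = 0.0884).

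Aldh1l1 encodes a folate dehydrogenase of one-carbon metabolism, and its promoter is widely used to label astrocytes in mice. Its log2 levels were 4.71, 4.30, 4.22 and 4.30 in secondary and 3.96, 4.02 and 3.35 in tertiary gliomas. The groups did not overlap, but all values were near the dim filter of 3.99 and the tertiary mean of 3.78 lay below it. The log2 difference was -0.60 ± 0.21 (adjusted p = 0.136, unadjusted interval -1.09 to -0.12). It was -0.39 without tertiary glioma 3, and the second probe set, with values of 1.68 to 2.34, was too dim to be tested. Of 15 tested genes of folate and one-carbon metabolism, Aldh1l1 included, 2 rose (13.3%, beside 1.04% of all genes called higher) and none fell. In 11 of the 15 the difference was positive and in 4 negative, beside 8765 and 5688 of 14453 genes tested. Their median was 0.22, or 0.49 without tertiary glioma 1. Shmt2, the mitochondrial serine hydroxymethyltransferase, rose by 1.57 ± 0.31 (adjusted p = 0.0229), and Mthfd2, the next enzyme in that path, by 1.63 ± 0.33 (adjusted p = 0.0251). The Shmt2 call was lost without secondary glioma 1 (0.0568) and tertiary gliomas 2 (0.0867) and 3 (0.0932). Mthfd2 lost its call when secondary glioma 1 (0.0618), 3 (0.0579) or 4 (0.0633) or tertiary glioma 2 (0.0924) or 3 (0.102) was left out.

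Fabp7, the brain lipid-binding protein of radial glia and glioma cells, had the smallest range of the 9 genes. Its log2 levels were 11.69, 11.44, 11.14 and 11.77 in secondary and 11.35, 11.54 and 12.04 in tertiary gliomas. Tertiary glioma 3 was the highest sample and secondary glioma 3 the lowest, and the range over all 7 was 0.90. Fabp7 had a log2 difference of 0.14 ± 0.22 (adjusted p = 0.750, interval -0.38 to 0.65), or -0.06 without tertiary glioma 3, and Fabp7 had a single probe set. Of 7 tested fatty acid and retinoid binding or related genes none was called, 3 had an unadjusted p under 0.05 (beside 23.8% of all genes) and the median was -0.08. Fabp3, the heart-type binding protein, was at -0.88 ± 0.32 (adjusted p = 0.152) and Fabp4, the adipocyte and macrophage form, at -0.63 ± 0.24 (adjusted p = 0.167).

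**Figure D3:**
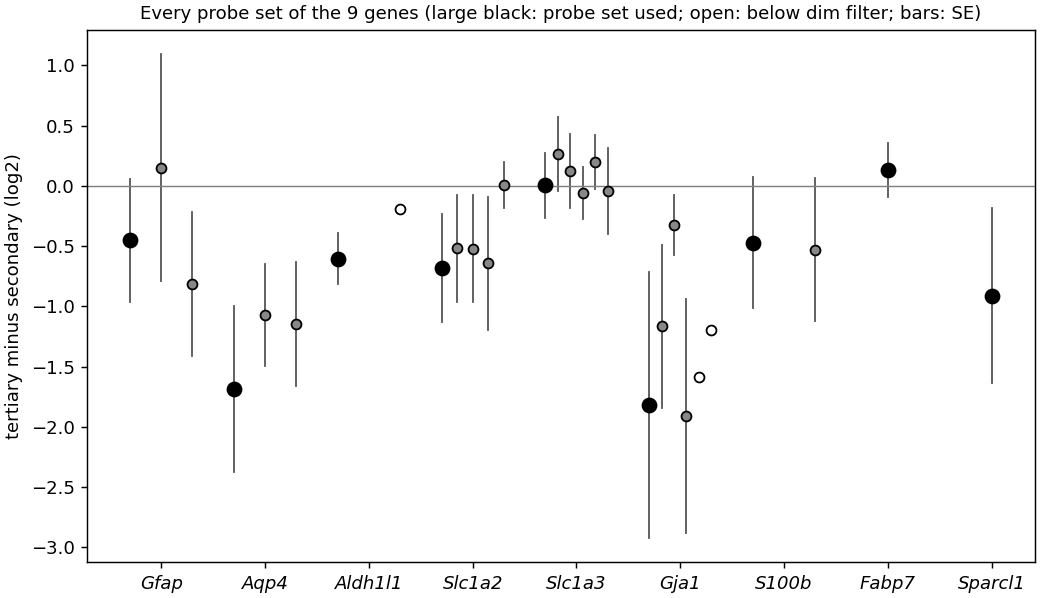
Tertiary minus secondary log2 difference (vertical axis) of all 29 probe sets of the 9 genes, each column ordered from the brightest to the dimmest, with the probe set used in large black, the others in grey, bars of ± 1 SE, and open symbols for the 3 below the dim filter. All Aqp4 and Gja1 probe sets lie below 0, those of Slc1a3 lie on both sides of it, and the 3 Gfap probe sets differ in sign.

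A wider list of astrocyte genes also had tertiary glioma 1 as its highest tertiary glioma in most cases. Of 54 further genes, 53 had a probe set and 46 were tested; 4 were called lower, which is 8.70% beside 6.33% of all genes, and none higher. Their median difference was -0.15. With 1 sample left out it was nearer 0 for secondary glioma 1 (-0.023) and tertiary gliomas 2 (0.032, with the sign turned) and 3 (-0.036), and farther from 0 for secondary glioma 3 (-0.32) and tertiary glioma 1 (-0.34). Tertiary glioma 1 was the highest of the 3 tertiary gliomas in 37 of the 46 genes, and in 39.3% of all genes tested. The lowest was tertiary glioma 3 in 20 and tertiary glioma 2 in 19. In the 9 genes, by contrast, these counts were 1 and 6, with the Aqp4 tie counted for tertiary glioma 2. That contrast was not tested. Tertiary gliomas 2 and 3 lay below every secondary glioma in 22 and 20 of the 46, and in 24.9% and 23.6% of all genes. Tertiary glioma 1 lay above every secondary glioma in 21 of the 46 and below every one in 7, and in 32.1% and 23.6% of all genes. The list mean was 7.96, 7.80, 7.36 and 7.63 in secondary gliomas and 7.84, 7.04 and 7.09 in tertiary gliomas. The mean of tertiary glioma 1, though not most of its genes, was thus inside the secondary range.

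Examples chosen after their values were seen show the split. Htra1, a secreted protease, was at 10.79 in tertiary glioma 1 and at 7.91 and 8.32 in tertiary gliomas 2 and 3, with secondary values of 8.92 to 10.02. Megf10, a receptor by which astrocytes engulf synapses, was at 8.29, 4.87 and 5.77 in the 3 tertiary gliomas. Dio2, the deiodinase that activates thyroid hormone, was at 7.35, 4.81 and 4.71. None of these genes passed the test between groups. In each, tertiary glioma 1 was above and tertiary gliomas 2 and 3 were below the secondary mean.

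The 4 genes of the wider list that fell did so in all 3 tertiary gliomas. Apoe, the main lipid carrier of the brain, had secondary values of 11.38 to 11.90 and tertiary values of 8.52, 7.64 and 7.09, a log2 difference of -3.91 ± 0.33 (adjusted p = 0.000247). Pla2g7, a secreted phospholipase (-2.97 ± 0.55, adjusted p = 0.0165), Mertk, a receptor for engulfing dying cells (-3.58 ± 0.72, adjusted p = 0.0237), and Glul were the others. The Pla2g7 call was lost without secondary glioma 2 (0.0534). Mertk lost its call when secondary glioma 2 (0.0654), 3 (0.0683) or 4 (0.0528) or tertiary glioma 2 (0.101) or 3 (0.0856) was left out. Apoe, Mertk and Pla2g7 are also made by microglia and macrophages, whose markers were lower in 19 of 19 cases in these samples, and their part was not tested.

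**Figure D4:**
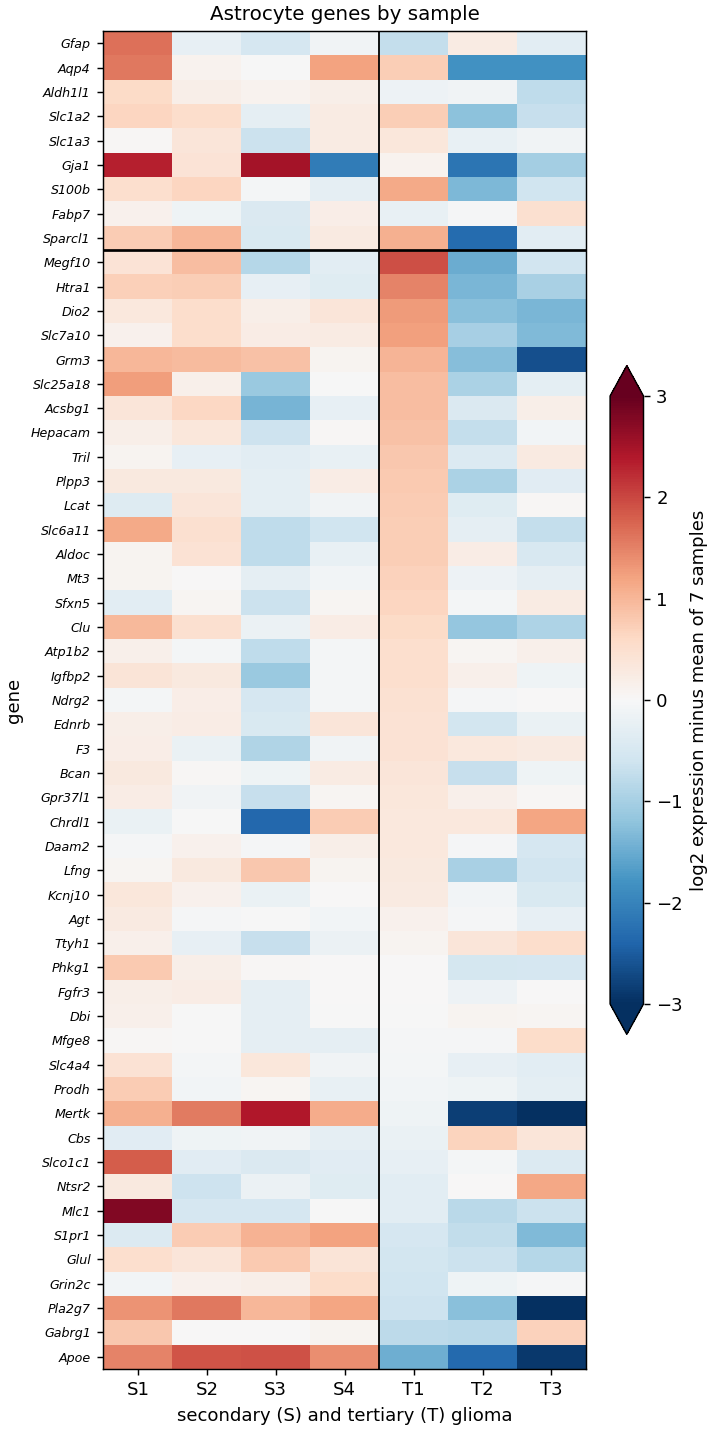
Log2 expression minus the mean of 7 samples (colour, cut at ± 3) for the 9 astrocyte genes (above the line) and 46 further astrocyte genes (below, ordered by tertiary glioma 1) in secondary (S1 to S4) and tertiary (T1 to T3) gliomas. Many rows are red in T1 and blue in T2 and T3, and Apoe, Mertk, Pla2g7 and Glul are blue in all 3 tertiary gliomas.

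Genes of reactive astrocytes, the state that follows injury, gave calls in the upward direction. Of 18 tested, 2 were called higher and none lower (11.1% beside 1.04% of all genes called higher). The list as a whole was mixed. Its differences were positive in 10 genes and negative in 8, beside 8765 positive and 5688 negative of 14453 genes tested. The median difference was 0.37, or 0.12 without tertiary glioma 3. Cd44, the hyaluronan receptor, had secondary values of 5.64 to 6.11 and tertiary values of 6.63, 8.05 and 7.21 (1.49 ± 0.31, adjusted p = 0.0290). The Cd44 call was lost with any secondary glioma left out (adjusted p of 0.0655, 0.0537, 0.0811 and 0.0801 for 1 to 4), with tertiary glioma 3 left out (0.0887) and with its probe sets averaged (0.0619). Cd109, a membrane inhibitor of TGF-beta signalling, had tertiary values of 5.89, 6.37 and 5.77 and secondary values of 4.16 to 5.38 (1.35 ± 0.30, adjusted p = 0.0352). Cd109 lost its call when secondary glioma 2 (0.0934), 3 (0.0777) or 4 (0.0836) or tertiary glioma 2 (0.134) or 3 (0.0777) was left out.

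Regulators of astrocyte fate were called lower at a share near that of all genes. Of 28 tested, 2 fell (7.14%, beside 6.33% of all genes) and none rose. At an unadjusted p under 0.05 there were 9 of the 28, beside 23.8% of all genes. The median was 0.10, near the 0.09 of all genes. Id2, an inhibitor of basic helix-loop-helix factors, was lower by a log2 difference of -1.09 ± 0.21 (adjusted p = 0.0189; 0.0555 without secondary glioma 2, 0.0809 and 0.0777 without tertiary gliomas 2 and 3). Atf3, a stress-induced factor that is also an immediate early gene, was at -3.81 ± 0.26 (adjusted p = 0.000116). Immediate early genes, which tissue dissociation can induce, were lower in 12 of 24 cases (beside 6.33% of all genes), with Zfp36 at -2.77, Klf2 at -3.03 and Btg2 at -2.93, and list means of 9.43 to 10.31 and 8.28 to 8.42. Nfia, the nuclear factor that starts astrocyte differentiation, ran from 10.71 to 11.43 over the 7 samples. Sox9, which acts with it, was at 7.26, 5.85, 4.64 and 7.42 in secondary and 5.68, 7.66 and 8.23 in tertiary gliomas (0.90 ± 0.82, adjusted p = 0.540). As with Nes, the tertiary gliomas low in Aqp4 and S100b had more Sox9 than tertiary glioma 1. Nfia and Sox9 were named after their values were seen.

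Of 18 tested radial glia genes 15 had a positive and 3 a negative difference, with a median of 0.28. Over all 14453 genes tested, 8765 were positive and 5688 negative, with a median of 0.09. The single call was lower (5.56%, beside 6.33% of all genes), Fgfr2, a fibroblast growth factor receptor (-1.88 ± 0.26, adjusted p = 0.00374). With its probe sets averaged it was at -0.88 and not called (adjusted p = 0.0599). Neuron markers gave no call among 12 (2 at an unadjusted p under 0.05, beside 23.8% of all genes), with Tubb3, a neuronal tubulin, at 1.81 ± 0.50 (adjusted p = 0.0763) and Map2, a dendritic protein, at 0.56 ± 0.22 (0.172). Of the precursor markers, Sox10 was at 0.30 ± 0.17 and Vcan, the matrix protein versican, at 0.34 ± 0.20. The red blood cell markers Alas2 and Slc4a1 were at 0.40 ± 0.23 and 0.0339 ± 0.13.

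**Figure D5:**
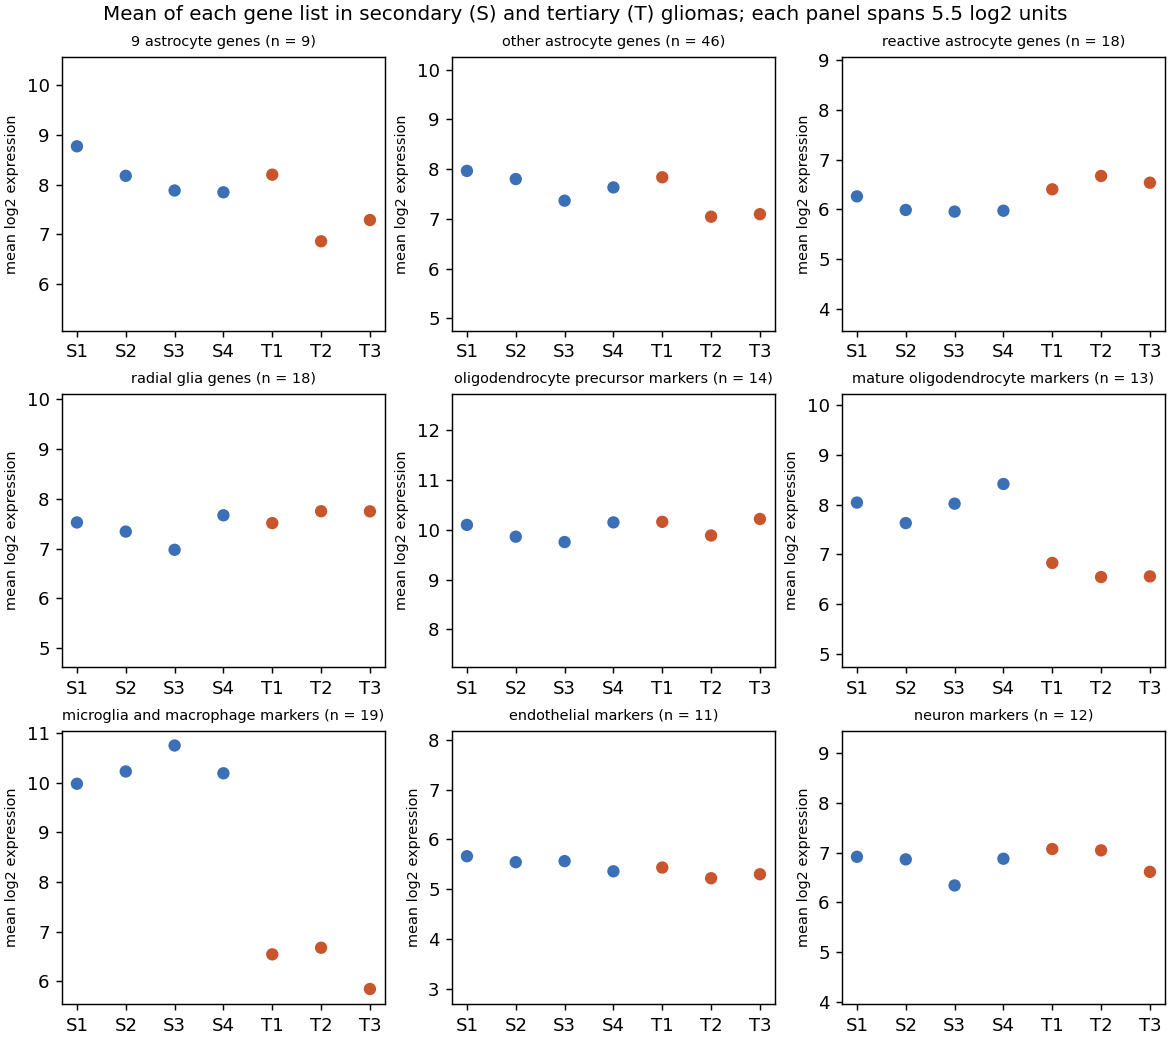
Mean log2 expression (vertical axis, each panel spanning the same width) of 9 gene lists in secondary (S, blue) and tertiary (T, orange) gliomas, with the number of genes tested. The means of the 9 astrocyte genes and of the other astrocyte genes keep tertiary glioma 1 among the secondary gliomas, whereas those of microglia and macrophage and mature oligodendrocyte markers are low in all 3 tertiary gliomas. The mean of the reactive astrocyte genes is higher in all 3 tertiary gliomas (6.41 to 6.67) than in the secondary gliomas (5.96 to 6.26), though 8 of its 18 genes had a negative difference.

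Microglia and macrophage markers were low in all 3 tertiary gliomas, in another order than the astrocyte genes. The list means of these markers in tertiary gliomas 1 to 3 were 6.55, 6.68 and 5.85, all far below the secondary values, whereas the mean over the 9 astrocyte genes was 8.20, 6.86 and 7.29 there and 8.77, 8.18, 7.88 and 7.85 in secondary gliomas. The mean over the precursor markers was 10.16, 9.89 and 10.22. Mki67, a gene of dividing cells, was at 9.21, 10.93 and 11.29 in the tertiary and between 9.43 and 10.53 in the secondary gliomas, and was named after its values were seen. Whether any of these had a part in the astrocyte values was not tested.

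The genes with the most similar profiles were sought for the 5 of the 9 whose values ranged over at least 2 log2 units, by the root mean square difference of centred values over the 7 samples. S100b was nearest to Unc13c, a synaptic vesicle protein (0.22), Acot11, a fatty acyl thioesterase (0.22), and Htra1 (0.23). Sparcl1 was nearest to Pdzd2 (0.20), Acot11 (0.34) and Unc13c (0.37), so S100b and Sparcl1 shared 2 of their 3 nearest genes. Aqp4 was nearest to Cox6b2 (0.47), Mobp, a myelin protein (0.48), and Ccdc85a (0.49). Gfap was nearest to Slco1c1 (0.24), Klhl10 (0.28) and Ddit4l (0.31), all 3 highest in secondary glioma 1. Gja1 had no close match, with Col1a2, a fibrillar collagen, at 0.97, Rit2 at 0.98 and Tmem204 at 0.98. All profiles share the same 7 arrays and normalization, and the likeness is a description over these samples.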

How the data were processed

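The data are 7 arrays, 4 of secondary and 3 of tertiary gliomas. Trizol-extracted RNA (30 ng) was amplified to cDNA with a whole-transcriptome kit and 5 µg of it was biotin-labelled, per the labels' protocols. The deposited values are log2 intensities, which the authors made with RMA (submitters' processing notes), with version and settings not stated. Array medians ran from 5.57 to 5.64, so the arrays were on 1 scale, and having only 7 of them limits precision.

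Of 45101 probe sets, 34945 had 1 gene symbol in GEO's platform annotation, 932 several and 9160 none; 64 were controls. Each gene was represented by its probe set of highest mean, and genes below the 25th percentile of all probe set means (3.99) were left out. Groups were compared with limma 3.58.1 in R 4.3.3 (lmFit and eBayes, Benjamini-Hochberg adjustment over 14453 genes, threshold 0.05). On simulated data with these sample sizes, the test recovered 49% of 100 genes shifted by a log2 value of 1 and 81% of 100 shifted by 2, with 9 false calls among 14453 genes. The shifted genes were drawn at random from all genes tested, whose median standard deviation within groups was 0.27. For the 9 astrocyte genes that median was 0.82, so these shares do not carry over to them. The text names the 9 genes, up to 4 called genes of each other list by lowest p (up to 2 by lowest p where none was called) and the 3 nearest profiles; any other gene is marked where it is named. Alternatives were probe set averaging, the dim filter, the normalization, the variance model, array weights, a replicate block, the threshold and leaving out each sample. The 9 genes and all lists were chosen with earlier results of these data known. The labels do not say which samples share a donor, so samples were not treated as pairs. Deviations from the group means correlated at 0.04, -0.14 and 0.01 in same-numbered samples and at -0.24 to 0.27 in the others. These values cannot exclude pairing.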

Additional observations from a re-analysis of the deposited data

Results flagged for a closer look

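In groups of 4 samples, a value was picked out where its gap to the nearest other sample, as a share of the group's range, passed Dixon's 95% critical value. Of 51 groups examined 3 met this, and chance gives about 1 in 20. In secondary gliomas, the dim second Aldh1l1 probe set had 2.34 in glioma 1 and 1.96 in the other 3, a gap of 1.0 of the range, all below the dim filter. The mean of the reactive astrocyte genes was 6.26 in secondary glioma 1 and 5.96 to 5.99 in the others (0.891 of the range). The mean of the neuron markers was 6.34 in secondary glioma 3 and 6.87 to 6.92 in the others (0.910 of the range).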

How the results depend on the processing

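With array weights 2 of the 9 genes were called lower, Aqp4 (-2.23) and Aldh1l1 (-0.71), and without tertiary glioma 1 there were 2, Aqp4 (-2.54) and Slc1a2 (-1.25). The replicate block called 1, Gja1 (-2.77), with 575 genes lower and 61 higher over the array. The labels do not say whether equal replicate numbers pair samples. The other alternatives called 0. Slc1a3 turned to -0.022 with quantile normalization and -0.27 with array weights. Leaving out 1 sample gave -0.70 to 0.032 for Gfap, -2.54 to -1.26 for Aqp4, -0.72 to -0.39 for Aldh1l1, -1.25 to -0.26 for Slc1a2, -0.21 to 0.13 for Slc1a3, -2.77 to -1.23 for Gja1, -1.17 to 0.064 for S100b, -0.062 to 0.28 for Fabp7 and -1.70 to -0.0115 for Sparcl1. Over all genes, 668 were higher with array weights, 437 at an adjusted p under 0.10 and 29 (with 492 lower) with each gene's own variance; leaving out 1 sample gave 27 to 781. The causes were not tested. Aldh1l1 had no value with probe sets averaged or the filter at the 50th percentile, nor Gja1 with the latter. Signal near the filter limits Aldh1l1, Aqp4 and Gja1. Of the named genes called with all samples, each gene's own variance ended the calls of Abcc9, Anpep, Cd109, Cd44, Id2, Mag, Mertk, Mthfd2, Pla2g7, S100a8, S100a9, Shmt2 and Sparc (adjusted p from 0.0709 to 0.163). The replicate block ended those of Abcc9, Anpep, Cd109, Cd44, Id2, Mal, Mertk, Mthfd2 and Shmt2 (0.0565 to 0.110), and testing dim probe sets too ended that of Abcc9 (0.0591).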
